A study of Mus musculus with 8 samples.

Results

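The comparison described here asks whether contact with a Notch ligand for 6 h moved gene expression by the same amount at 2 stages of monocyte maturation. The common monocyte progenitor (cMoP) is the dividing bone marrow cell that gives rise to monocytes, and the Ly6C+ classical monocyte is the cell it becomes. For each gene the response was taken as the log2 level on OP9-DLL1 minus the log2 level on OP9. The monocyte response was then subtracted from the cMoP response. A positive difference of responses therefore means a more positive (or less negative) change in cMoPs. Of the 13388 genes in the deposited table, 13374 reached 1 CPM (the read count of a gene scaled to library size) in at least 2 libraries and were tested, and all 8 libraries of the series entered the fit.

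The bone marrow donors were wild type mice. Monocytes sorted as Ly6C+, or cMoPs, spent 6 h on the mouse stromal line OP9 or on its derivative OP9-DLL1, which presents the Notch ligand DLL1. There were 2 libraries in each of the 4 groups. No untreated cells without stroma were in the set used here, so each response is relative to OP9 stroma. The strain, age and number of the mice, how the ligand was introduced into the line and how the cells were separated from the stroma before RNA extraction are not stated in the labels.

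Notch receptors are cut after ligand binding, and the freed intracellular domain joins the DNA-binding protein RBPJ at target genes, of which Hes1, a repressor, is the best known. Notch signals are known to favour the step from Ly6C+ monocytes to Ly6C-low nonclassical monocytes, which patrol blood vessels. A progenitor and a mature cell can carry the same receptor and still differ in which target genes are open to it.

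Recovered depth was 47316323 to 62459962 reads per library, so that 1 read was worth 0.0151 to 0.0231 CPM. The OP9 monocyte libraries stood apart, with 1445 genes over 2-fold apart between them against 724 to 804 in the other groups, so results that rest on them are also given without each one. The cMoP marker genes summed to 14840 to 22150 CPM in cMoP libraries and 235 to 448 CPM in monocyte libraries, with 9 of 10 listed markers in the table. The 9 Ly6C+ monocyte markers summed to 6566 to 9163 CPM in monocytes and 3216 to 3874 CPM in cMoPs. On OP9, Ly6c2 (mean 1038 CPM in monocytes, 2193 CPM in cMoPs) and Cx3cr1 (2.26 and 10.72 CPM) were higher in cMoPs, and the rest were higher in monocytes. Of 21 stromal markers, 8 were in the table. They summed to 40.1 and 35.1 CPM in OP9 monocyte libraries, 5.42 and 23.0 CPM in OP9-DLL1 monocyte libraries and 1.81 to 4.97 CPM in cMoP libraries. Pf4 and Ppbp, the 2 of 9 platelet markers in the table, reached 113.2 and 194.8 CPM together in the OP9 monocyte libraries, 22.2 and 12.7 CPM in the OP9-DLL1 ones and 0.635 to 2.02 CPM in cMoPs. The neutrophil marker sum (12 of 14 markers) was 2078 and 2555 CPM, then 1766 and 1760 CPM, and 671 to 754 CPM in the same order. All 3 sums were lower in monocytes on OP9-DLL1 than on OP9 and lower still in every cMoP library, and their part in the differences below was not tested. The neutrophil marker Mmp8, also on the classical monocyte list, went from a mean of 1325 to 730.3 CPM in monocytes (limma adjusted p = 0.182). In cMoPs it was at 14.56 and 10.73 CPM. On OP9 and then OP9-DLL1, S100a8, likewise on that list, was at 281.2 and 307.1 CPM in monocytes and 302.6 and 308.5 CPM in cMoPs. Single members moved otherwise in monocytes. Pdgfrb, the 1 stromal marker that passed, rose from a mean of 0.114 to 3.56 CPM (log2 5.35 ± 0.93, limma adjusted p = 0.0119), and Csf3r, the neutrophil growth factor receptor, rose from 114.9 to 228.7 CPM (1.004 ± 0.157, adjusted p = 0.00779).

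The difference of responses passed for 7 genes (0.0523% of those tested; limma-trend, Benjamini-Hochberg adjusted p under 0.05, two-sided). Of these, 4 had a more positive response in cMoPs (0.0299%) and 3 in monocytes (0.0224%). At an unadjusted p under 0.05 there were 1309 genes (9.79%), 693 with a positive and 616 with a negative difference. Plac8, Pecam1 and Il21r rose in monocytes, with cMoP responses of 0.39, 0.08 and 0.26 log2 units that did not pass. Hmga1 and Gpatch4 fell in monocytes, with cMoP responses of -0.02 and -0.26 that did not pass. Pla2g7 rose in cMoPs, and Spic rose in both, by a larger log2 fold change in cMoPs. Each of the 7 kept its direction without OP9 monocyte replicate 1 and without OP9 monocyte replicate 2. Leaving out either one takes the spread of this widest pair out of the shared estimate, so passing in those fits is no separate check. Without any 1 of the other 6 libraries no gene passed by the same limma test, with 787 to 1073 genes at an unadjusted p under 0.05 there, although each of the 7 kept its direction. Without the mean-variance trend 0 of the 7 passed and 1 other gene did, with 1118 genes at an unadjusted p under 0.05.

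Promoter sequences are shown for 3 genes, the genes whose log2 rise was larger in cMoPs (Spic and Pla2g7) and of Cd22, which rose by almost the same log2 amount at both stages. Each covers 250 bases before to 50 bases after the annotated start, read 5′ to 3′ on the strand of the gene, from RefSeq on GRCm38.p6. Capitals mark TGGGAA, the core bound by RBPJ, searched on both strands. The positions are chr10:88682974-88683273 on the minus strand for Spic, chr17:43568201-43568500 on the plus strand for Pla2g7 and chr7:30878979-30879278 on the minus strand for Cd22.
Spic: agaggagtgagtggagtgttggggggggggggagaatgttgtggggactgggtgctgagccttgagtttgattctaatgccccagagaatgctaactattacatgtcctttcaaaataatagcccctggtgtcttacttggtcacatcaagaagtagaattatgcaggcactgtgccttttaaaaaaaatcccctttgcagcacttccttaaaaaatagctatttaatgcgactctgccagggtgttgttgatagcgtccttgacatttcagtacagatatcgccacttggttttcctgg
Pla2g7: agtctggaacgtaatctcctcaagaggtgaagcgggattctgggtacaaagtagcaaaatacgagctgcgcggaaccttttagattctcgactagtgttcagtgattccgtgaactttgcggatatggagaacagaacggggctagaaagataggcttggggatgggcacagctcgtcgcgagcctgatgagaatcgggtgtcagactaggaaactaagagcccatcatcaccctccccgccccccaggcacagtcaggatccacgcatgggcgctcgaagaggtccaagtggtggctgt
Cd22: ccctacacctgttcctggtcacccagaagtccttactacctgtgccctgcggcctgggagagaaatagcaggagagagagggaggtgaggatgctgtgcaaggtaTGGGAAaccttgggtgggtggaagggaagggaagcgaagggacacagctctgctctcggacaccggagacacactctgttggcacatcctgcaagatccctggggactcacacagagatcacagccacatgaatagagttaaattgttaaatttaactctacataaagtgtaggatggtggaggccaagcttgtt
The Cd22 window held 1 match and the Spic and Pla2g7 windows held 0. Each window lies inside the GENCODE span of its gene, so the RefSeq start used is not the outermost GENCODE start. Bases before that outermost start are not covered. Of all 32851 promoters of that length in the reference table, 8397 (25.6%) held the 6 letters, so a match is common. Promoters were found for 5 of the 7 genes and for 67.8% of all genes tested, below 80%, so a comparison of motif shares between classes of genes is void.

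**Figure D1:**
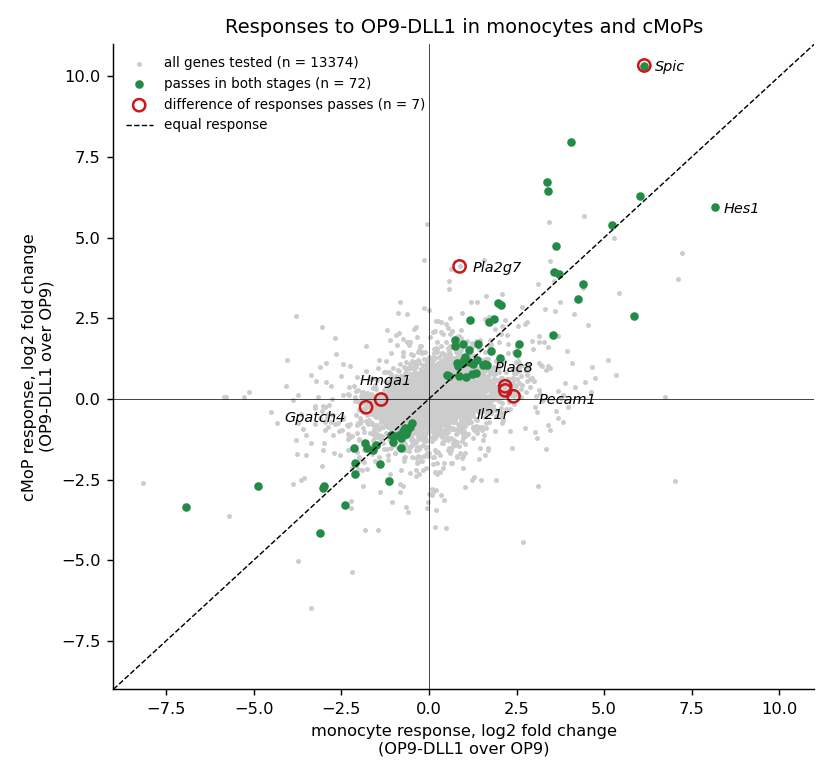
Each grey point is 1 of 13374 genes, with its log2 fold change (OP9-DLL1 over OP9) in monocytes on the x axis and in cMoPs on the y axis; green points passed in both stages (72 genes), red rings mark the 7 genes whose difference of responses passed, and the dashed line is equal response. Plac8 lies at 0.39 on the cMoP axis and Pecam1, Il21r, Hmga1 and Gpatch4 lie nearer 0, while Pla2g7 and Spic lie above the line.

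Plac8 encodes a small cysteine-rich protein abundant in myeloid cells (chromosome 5, 100553725 to 100572245). It was at 222.7 and 209.1 CPM in monocytes on OP9 and at 939 and 1012 CPM on OP9-DLL1, against 1276 and 1281 CPM in cMoPs on OP9 and 1726 and 1629 CPM on OP9-DLL1. Both OP9-DLL1 libraries lay above both OP9 libraries at each stage. The monocyte response was a log2 fold change of 2.18 ± 0.10 (SE), a 4.52-fold rise of the mean, and the cMoP response 0.39 ± 0.10 (limma adjusted p = 0.165). Although the cMoP response did not pass, its unadjusted 95% interval of 0.17 to 0.62 did not include 0. The difference was -1.78 ± 0.14 (95% interval -2.10 to -1.47, adjusted p = 0.00524, limma). The level in cMoPs thus exceeded that in monocytes by 2.57 log2 units on OP9 and by 0.78 on OP9-DLL1. In bulk RNA, fewer cells of a type and less RNA per cell cannot be told apart.

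Pecam1 encodes the adhesion molecule CD31 (chromosome 11, 106654217 to 106750628). Its level in monocytes was 7.11 and 6.83 CPM on OP9 and 37.97 and 36.43 CPM on OP9-DLL1. In cMoPs it was 20.28 and 20.86 CPM on OP9 and 23.53 and 20.13 CPM on OP9-DLL1, where the groups overlapped. The rise in monocytes was 5.34-fold (log2 2.42 ± 0.15), the cMoP response 0.08 ± 0.15, and the difference -2.33 ± 0.21 (interval -2.82 to -1.85, limma adjusted p = 0.00944). Monocytes were below cMoPs by 1.56 log2 units on OP9 and above them by 0.77 on OP9-DLL1 (cMoP minus monocyte level -0.77, adjusted p = 0.00198).

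Il21r encodes the receptor of interleukin 21, a cytokine of activated T cells (chromosome 7, 125603429 to 125633570). Monocytes had 13.41 and 17.05 CPM on OP9 and 65.75 and 71.39 CPM on OP9-DLL1, and cMoPs had 34.28 and 28.31 CPM on OP9 and 36.04 and 38.76 CPM on OP9-DLL1. Groups did not overlap at either stage, but the separation was narrow in cMoPs. The responses were 2.18 ± 0.17 in monocytes and 0.26 ± 0.17 in cMoPs (adjusted p = 0.699), with a difference of -1.92 ± 0.23 (interval -2.44 to -1.39, adjusted p = 0.0298). As for Pecam1, the stage with the higher level changed from cMoPs on OP9 (by 1.04 log2 units) to monocytes on OP9-DLL1 (cMoP minus monocyte level -0.87, limma adjusted p = 0.00163).

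Hmga1 encodes a chromatin protein of dividing and progenitor cells (chromosome 17, 27556497 to 27563674). It has near-identical copies in the mouse genome, so its reads could be split among them. In monocytes it was at 150.1 and 131.9 CPM on OP9 and at 54.01 and 55.49 CPM on OP9-DLL1, and in cMoPs at 652.5 CPM in both OP9 libraries and at 667.4 and 621.4 CPM on OP9-DLL1. The monocyte groups were apart and the cMoP groups overlapped. The response was -1.36 ± 0.11 in monocytes and -0.02 ± 0.11 in cMoPs, and the difference 1.34 ± 0.15 (interval 0.996 to 1.69, limma adjusted p = 0.0252).

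Gpatch4 encodes a G-patch protein of the nucleolus (chromosome 3, 88043108 to 88055993). It was at 56.59 and 70.58 CPM in monocytes on OP9 and at 18.68 and 17.80 CPM on OP9-DLL1, a 3.49-fold fall. In cMoPs it was at 237.5 and 240.9 CPM on OP9 and at 202.7 and 197.5 CPM on OP9-DLL1, lower in both OP9-DLL1 libraries but by far less. The responses were -1.79 ± 0.13 and -0.26 ± 0.13 (cMoP adjusted p = 0.609), and the difference was 1.54 ± 0.19 (interval 1.12 to 1.95, limma adjusted p = 0.0298). Hmga1 and Gpatch4 were higher in cMoPs than in monocytes on OP9, by 2.21 and 1.92 log2 units, and the stages were further apart on OP9-DLL1, at 3.56 and 3.46. For each of these 5 genes the 95% interval of the cMoP response lay within 1 log2 unit of 0.

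Pla2g7 encodes a secreted phospholipase that breaks down platelet-activating factor and is made by macrophages (chromosome 17, 43568098 to 43612201). It was at 3.46 and 4.25 CPM in cMoPs on OP9 and at 76.27 and 57.49 CPM on OP9-DLL1, a 17.3-fold rise. In monocytes it was already at 1453 and 870.8 CPM on OP9 and at 2364 and 1802 CPM on OP9-DLL1. The groups did not overlap at either stage. The cMoP response was 4.11 ± 0.25, the monocyte response 0.88 ± 0.25 (adjusted p = 0.073) and the difference 3.23 ± 0.35 (interval 2.44 to 4.02, limma adjusted p = 0.0216). Because the monocyte response missed the threshold, Pla2g7 counts as passing in cMoPs only, but its monocyte interval of 0.32 to 1.44 does not include 0. In CPM the change was 920.7 in monocytes and 63.0 in cMoPs, so the stage with the larger change depends on the scale. Without the mean-variance trend, with log2(CPM + 1), with both voom weightings of the recovered reads and with the replicate number as a block, 0 genes passed in cMoPs only. The Pla2g7 difference itself did not pass without the trend or with voom without library weights.

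Spic encodes an ETS-family transcription factor needed for splenic red pulp macrophages (chromosome 10, 88674772 to 88685015). It had 0 reads in both OP9 cMoP libraries and 11.42 and 10.04 CPM in cMoPs on OP9-DLL1. In monocytes it went from 1.41 and 2.03 CPM to 124.5 and 116.4 CPM. The groups did not overlap at either stage, and the level on OP9-DLL1 was higher in monocytes. The rise was 70.1-fold in monocytes and at least 433-fold in cMoPs, the latter against a floor of 3 reads over the OP9 group, which covers counting error only. The fitted difference was 4.19 ± 0.46 (interval 3.15 to 5.22, limma adjusted p = 0.0216). With a group at 0 reads, however, its size and sign depend on the offset added to the reads. With log2(CPM + 1) it turned to -1.94 (adjusted p = 0.027). With both voom weightings of the recovered reads and without the mean-variance trend it did not pass. On the CPM scale the change was 118.7 in monocytes and 10.7 in cMoPs.

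**Figure D2:**
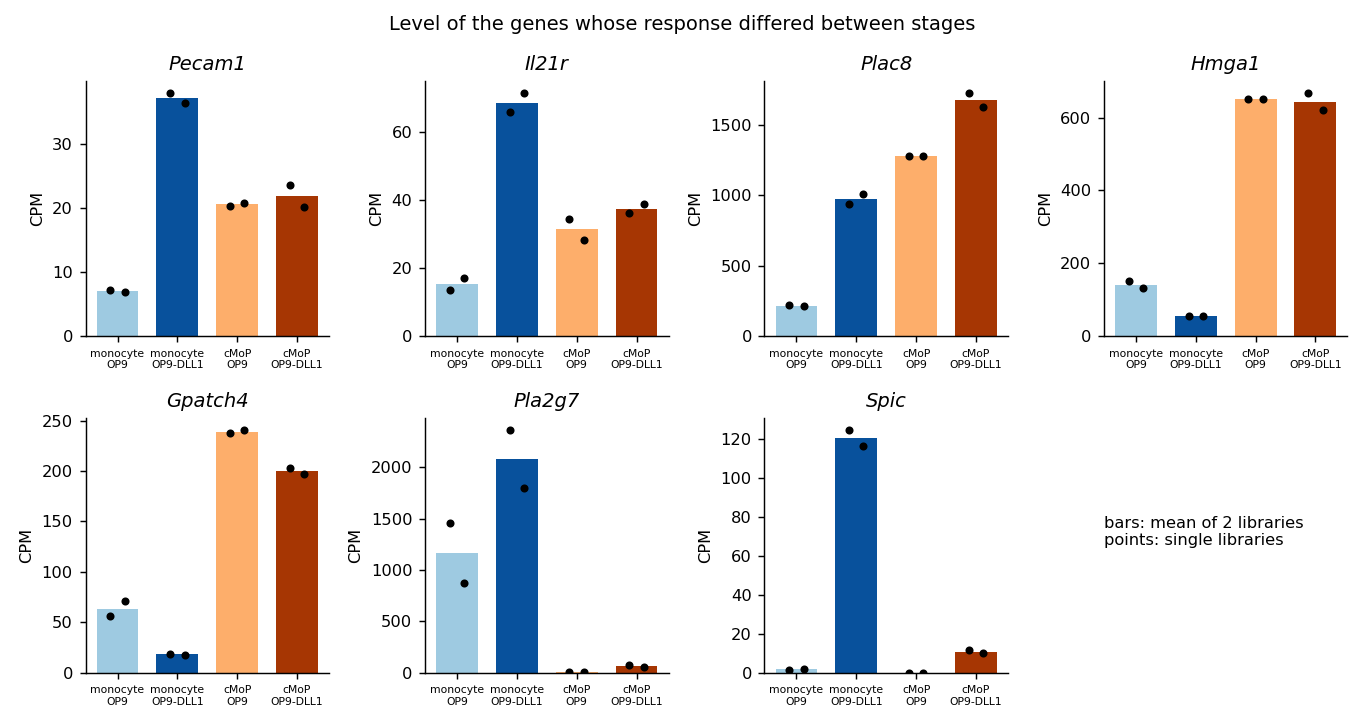
Bars give the mean CPM of 2 libraries and points the single libraries for the 7 genes whose response differed between stages, in monocytes (blue) and cMoPs (orange) on OP9 (light) and OP9-DLL1 (dark). Pecam1 and Il21r are lower in monocytes than in cMoPs on OP9 and higher on OP9-DLL1, Hmga1 and Gpatch4 fall by over 1 log2 unit in the monocyte bars and by 0.02 and 0.26 in the cMoP bars, and Spic and Pla2g7 stay far lower in cMoPs than in monocytes even after their rise.

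The responses themselves passed for 855 genes in monocytes (6.39%), 450 higher on OP9-DLL1 (3.36%) and 405 lower (3.03%; 361 higher and 545 lower with libraries centred on their medians), and for 103 genes in cMoPs (0.77%), 62 higher (0.464%) and 41 lower (0.307%). Both stages passed in 1 direction for 72 genes (0.538%), which is 8.42% of the monocyte genes and 69.9% of the cMoP genes. No gene passed in opposite directions. Of the 72, the difference passed for Spic alone, and the other 71 are called shared below. That class is wide. The difference could be placed within 1 log2 unit either way (95% interval) for 33 of the 72, a share close to the 6152 of all 13374 genes tested. For 24 of the 71 the unadjusted 95% interval of the difference did not include 0, against 1309 of all genes tested. With 2 libraries per group the median standard error was 0.23 log2 units for a response and 0.32 for the difference.

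Among the shared genes named by the strength of both responses, 5 had differences close to 0. Spp1, which encodes osteopontin, was at 1777 and 2627 CPM in monocytes on OP9 and at 280.4 and 265.1 CPM on OP9-DLL1, and at 1278 and 1634 CPM in cMoPs on OP9 and 212.7 and 232.8 CPM on OP9-DLL1. Both stages therefore started high and ended at similar levels, and the groups were apart in each. The falls were -2.99 ± 0.18 and -2.70 ± 0.18, and the difference was 0.29 (interval -0.30 to 0.87, limma adjusted p = 0.762).

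Slc39a14, a zinc and iron importer, fell from 43.59 and 57.80 CPM to 11.23 and 12.25 CPM in monocytes and from 20.49 and 20.22 CPM to 4.76 and 5.59 CPM in cMoPs. C3ar1, the receptor of complement C3a, fell from 337.3 and 264.1 CPM to 79.89 and 59.27 CPM in monocytes. In cMoPs it fell from 2.62 and 3.10 CPM to 0.597 and 0.523 CPM. The level was far lower in cMoPs, and the log2 fold change was -2.33 ± 0.21 there and -2.12 ± 0.21 in monocytes. The differences were 0.12 (interval -0.47 to 0.70) for Slc39a14 and -0.22 (interval -0.89 to 0.46) for C3ar1.

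Cd22, an inhibitory sialic acid-binding receptor best known on B cells (chromosome 7, 30865402 to 30880342), rose from 0.416 and 0.205 CPM to 9.73 and 13.31 CPM in monocytes and from 0.136 and 0.201 CPM to 6.31 and 8.49 CPM in cMoPs. The log2 rises were 5.24 ± 0.46 and 5.40 ± 0.46, with a difference of 0.16 (interval -1.29 to 1.61). F11r, the junctional adhesion molecule JAM-A, rose from 10.02 and 6.60 CPM to 108.0 and 105.9 CPM in monocytes and from 0.786 and 0.402 CPM to 6.88 and 9.97 CPM in cMoPs. Its rises were 3.72 ± 0.34 and 3.86 ± 0.34, with a difference of 0.15 (interval -0.94 to 1.23). For both genes the groups were apart at each stage, and the intervals allow a difference of over 1 log2 unit either way for Cd22 and a positive one for F11r.

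The other 3 shared genes named by that rule had unequal estimates that did not pass. Hes1 was nearly silent on OP9, with 3 reads in all over the monocyte group, and reached 11.70 and 11.28 CPM in monocytes and 2.92 and 3.12 CPM in cMoPs on OP9-DLL1. The ratio was 372 in monocytes (95% counting interval 127 to 1804) and 73.8-fold in cMoPs, whose OP9 libraries were at 0.045 and 0.037 CPM. Its difference was -2.22 ± 0.82 (interval -4.06 to -0.38, limma adjusted p = 0.426). Ccl2, a chemokine that recruits CCR2-bearing monocytes, fell from 1692 and 1088 CPM to 56.90 and 37.03 CPM in monocytes, a 29.6-fold fall, and from 141.0 and 107.4 CPM to 20.85 and 17.09 CPM in cMoPs, a 6.55-fold fall. Its difference was 2.18 ± 0.36 (adjusted p = 0.131). Jaml, an adhesion molecule related to JAM proteins, rose 3.95-fold in monocytes, from 34.79 and 32.45 CPM to 139.2 and 126.6 CPM. In cMoPs it rose 7.55-fold, from 2.81 and 1.55 CPM to 16.49 and 16.43 CPM (difference 0.99 ± 0.35, adjusted p = 0.399).

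Ocstamp, a protein of osteoclast fusion, had the most negative estimate among the 72. It rose from 0.416 and 0.409 CPM to 21.88 and 27.33 CPM in monocytes and from 1.29 and 0.657 CPM to 5.04 and 6.13 CPM in cMoPs, with a difference of -3.27 ± 0.50 (limma adjusted p = 0.112). Itgax, which encodes the integrin CD11c of dendritic cells and nonclassical monocytes, rose from 1.43 and 1.21 CPM to 22.76 and 28.05 CPM in monocytes. In cMoPs it rose from 0.574 and 1.31 CPM to 6.81 and 8.37 CPM (difference -1.15 ± 0.53, adjusted p = 0.529). Ciita, the master activator of class II genes, was at 0 reads in cMoPs on OP9 and at 0.685 and 0.759 CPM on OP9-DLL1, an at least 29.1-fold rise. In monocytes it rose from 3.60 and 8.70 CPM to 44.15 and 79.69 CPM, 10.1-fold (fitted difference 3.06 ± 0.74, adjusted p = 0.236, and -2.39 with log2(CPM + 1)).

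**Figure D3:**
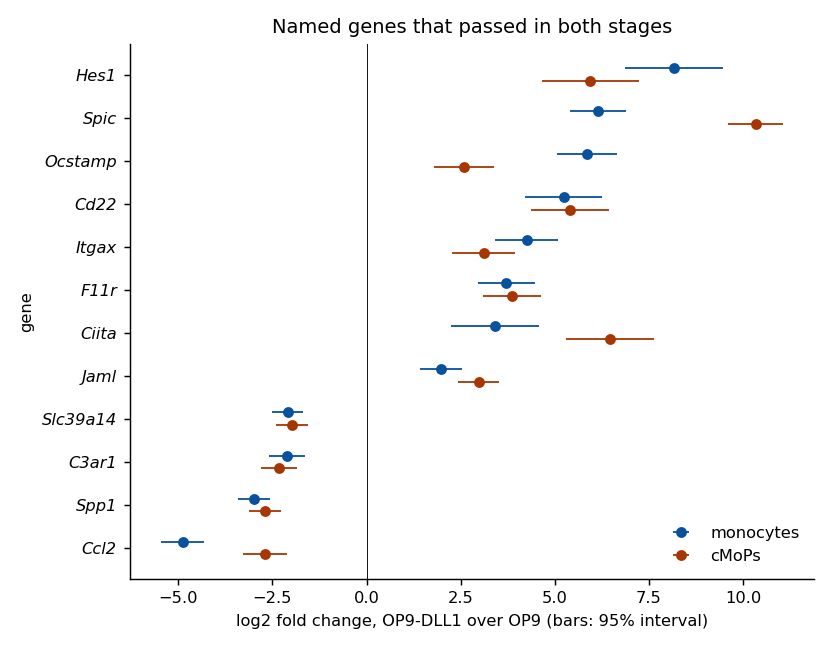
Points are log2 fold changes (OP9-DLL1 over OP9) with 95% intervals for 12 named genes that passed in both stages, in monocytes (blue) and cMoPs (red). Spp1, C3ar1, Slc39a14, F11r and Cd22 nearly coincide between stages, Ccl2, Hes1, Ocstamp and Itgax are further from 0 in monocytes, and Spic, Ciita and Jaml are further from 0 in cMoPs; the cMoP values of Spic and Ciita rest on 0 reads on OP9 and depend on the offset.

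Of the 72 genes, 45 were higher and 27 lower on OP9-DLL1. The mean log2 level was higher in monocytes for 65 of them (90.3%; 50.0% of all genes tested). The change in CPM was larger in monocytes for 63, a count not made over all genes. For the 12488 genes for which nothing passed, the log2 fold change was larger in cMoPs for 5023 and in monocytes for 7465. For the 72 it was larger in cMoPs for 45 and in monocytes for 27. Without the 5 genes at 0 reads in cMoPs on OP9 (Spic, Ciita, Gbp8, AW011738 and Gm19951, named after their values were seen) these counts were 40 and 27, with median sizes of 1.51 in cMoPs and 1.41 in monocytes. These counts are a description, since the genes had to pass in cMoPs, where fewer did. Without 1 library, 23 to 70 of the 72 still passed in both stages. The 10 that did so in each of the 16 other analyses run were Spp1, Ccl2, Slc39a14, Cd22, F11r, Hes1, Jaml, Spic, Il1r2 and I830077J02Rik. The last pair were named after their values were seen; Il1r2 encodes the interleukin 1 decoy receptor and rose by 2.07 ± 0.26 in monocytes and 2.91 ± 0.26 in cMoPs.

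Most responses could not be assigned. Of the genes that passed in monocytes, 778 did not pass in cMoPs and had a difference that did not pass either, and 30 genes were in the same position in cMoPs. For 561 of the 778 the cMoP interval lay within 1 log2 unit of 0, against 8373 of the 12488 genes for which nothing passed. The interval of the difference did so for 267, against 6152 of all 13374 genes tested. The median size of the response in the 778 was 0.92 in monocytes, where they were chosen, and 0.28 in cMoPs. By the test of the difference, 5 genes passed in monocytes only and 1 in cMoPs only, and a response that misses the threshold at 1 stage does not show its absence there.

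The responses of the 2 stages come from separate libraries, so the estimates of genes chosen at 1 stage could be read at the other. The standard error of a gene is shared by both stages, however. Genes that pass at 1 stage are chosen partly for a small standard error. The shares at an unadjusted p, here and in the reverse reading below, can be raised by that choice and are no independent reading. Of the 450 genes that passed higher in monocytes, 416 (92.4%) were also positive in cMoPs, against 51.2% of all genes tested, and 215 (47.8%) were positive at an unadjusted p under 0.05, against 5.24%. Only 2 were negative at that level. Their median was 1.07 in monocytes and 0.43 in cMoPs. Of the 405 genes that passed lower in monocytes, 319 (78.8%) were negative in cMoPs, against 48.8% of all genes, and 111 (27.4%) at an unadjusted p under 0.05, against 4.23%. Their medians were -0.83 and -0.16. The genes were chosen by their monocyte estimates, so the smaller cMoP medians are no measure of scaling, and no share is given a test because genes are not independent.

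Read the other way, the 62 genes that passed higher in cMoPs had a median of 1.58 there and 1.19 in monocytes, where 59 (95.2%) were positive and 56 (90.3%) were so at an unadjusted p under 0.05, against 11.2% of all genes. The 41 that passed lower in cMoPs had medians of -1.54 and -1.01, and 40 (97.6%) were negative in monocytes. Leaving out 1 library at a time, the share with the same sign ranged from 68.5% to 97.7% for genes higher in monocytes and from 52.3% to 85.8% for genes lower in monocytes. The lowest values came without OP9 monocyte replicate 2, when 1322 and 1160 genes passed in monocytes and their cMoP medians were 0.14 and -0.01. For genes chosen in cMoPs the ranges were 84.8% to 100% and 85.1% to 100%. Across all 13374 genes the correlation of the responses was r = 0.396, a description without a p.

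**Figure D4:**
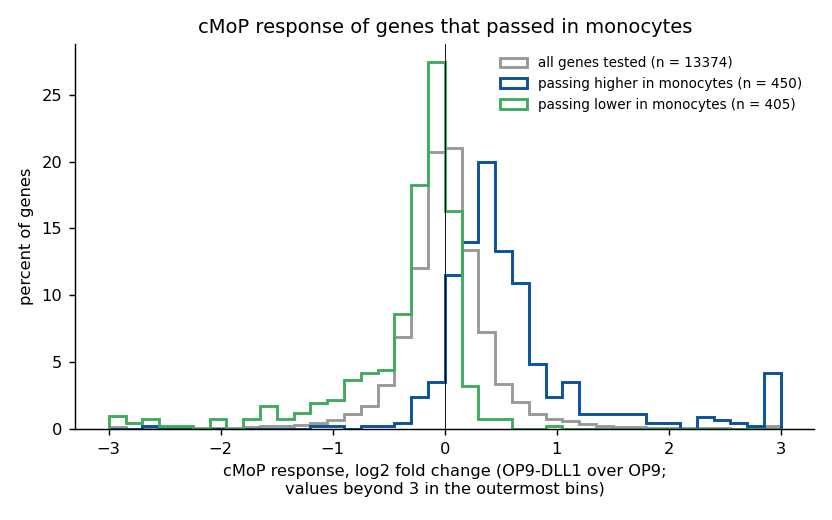
Step lines give the percent of genes (y axis) by their log2 fold change in cMoPs (x axis, OP9-DLL1 over OP9, values beyond 3 placed in the outermost bins), for all 13374 genes (grey), the 450 genes that passed higher in monocytes (blue) and the 405 that passed lower in monocytes (green). The blue line is shifted to the right of the grey one, with a median of 0.43, and the green line slightly to the left, with a median of -0.16.

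Other genes passed in monocytes and came near the threshold for the difference. Mettl1, a tRNA methyltransferase, was at 83.90 and 68.07 CPM in monocytes on OP9 and at 26.21 and 31.02 CPM on OP9-DLL1, and at 184.5 to 210.4 CPM in the 4 cMoP libraries (difference 1.49 ± 0.20, limma adjusted p = 0.0637). It was the gene just outside the threshold. Rrp15, a protein of ribosome assembly, was at 52.32 and 49.58 CPM in monocytes on OP9, at 23.95 and 21.76 CPM on OP9-DLL1 and at 165.5 to 181.6 CPM in cMoPs (1.08 ± 0.17, adjusted p = 0.112). Gbp3, an interferon-inducible GTPase, was at 16.00 and 16.14 CPM in monocytes on OP9 and 62.36 and 51.39 CPM on OP9-DLL1, and at 34.38 and 38.99 CPM in cMoPs on OP9 and 48.79 and 45.41 CPM on OP9-DLL1 (-1.45 ± 0.21, adjusted p = 0.0824). Itga4, an integrin subunit for binding VCAM-1, was at 42.48 and 47.84 CPM in monocytes on OP9 and 122.7 and 112.2 CPM on OP9-DLL1, and at 25.7 to 31.51 CPM in cMoPs (-1.25 ± 0.20, adjusted p = 0.117).

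Id3, an inhibitor of basic helix-loop-helix factors and a known Notch target, had estimates of opposite sign. It was at 1141 and 964.4 CPM in monocytes on OP9 and at 1608 and 1894 CPM on OP9-DLL1, a rise of 0.73 ± 0.14 that passed (adjusted p = 0.0198). In cMoPs it was at 76.87 and 62.39 CPM on OP9 and at 42.66 and 45.86 CPM on OP9-DLL1, a change of -0.65 ± 0.14 (adjusted p = 0.103). The groups did not overlap at either stage, and the difference was -1.38 ± 0.20 (limma adjusted p = 0.0987). Pf4, a chemokine of platelets, was at 77.55 and 91.11 CPM in monocytes on OP9 and 15.07 and 6.33 CPM on OP9-DLL1, and at 0.635 to 2.02 CPM in cMoPs (4.10 ± 0.65, adjusted p = 0.117), and is 1 of the platelet markers summed above.

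Among the undecided genes that passed in cMoPs, Lbh, Sdc4, Pde8a, Ccl4, P2ry10b and Ccl24 came nearest to a difference, with limma adjusted p-values of 0.162 to 0.203. Ccl4, an inflammatory chemokine, fell from 9.73 and 12.50 CPM to 1.26 and 2.26 CPM in cMoPs and was at 26.46 and 21.11 CPM on OP9 and 14.68 and 13.78 CPM on OP9-DLL1 in monocytes. Sdc4, a heparan sulfate proteoglycan, fell from 8.69 and 11.59 CPM to 3.65 and 3.48 CPM in cMoPs and stayed between 120 and 151.6 CPM in the monocyte libraries, where the groups overlapped. Ccl24, a chemokine for eosinophils, rose from 2.58 and 0.949 CPM to 9.08 and 5.87 CPM in cMoPs and was at 36.20 and 30.33 CPM and then 26.66 and 24.34 CPM in monocytes. The estimates of the difference were -1.97 ± 0.40 for Ccl4, -1.43 ± 0.26 for Sdc4 and 2.59 ± 0.57 for Ccl24.

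No receptor or other listed component of the Notch pathway passed for the difference. Notch1 was at 33.58 to 44.12 CPM in the 4 monocyte libraries and 9.99 to 12.76 CPM in the 4 cMoP libraries, and Notch2, the receptor named in the title of the series, at 60.19 to 75.05 and 27.5 to 36.26 CPM. For both, OP9 and OP9-DLL1 groups overlapped at each stage. The differences were 0.06 ± 0.26 for Notch1, with a sign that turned in 3 of the analyses that left out 1 library, and -0.32 ± 0.22 for Notch2. Rbpj fell in monocytes, from 66.68 and 72.24 CPM to 30.05 and 24.38 CPM (-1.36 ± 0.17), and in cMoPs went from 26.98 and 21.79 CPM to 18.07 and 16.43 CPM (-0.49 ± 0.17, adjusted p = 0.339). Its difference was 0.87 ± 0.24 (limma adjusted p = 0.288).

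Among all genes, 3.36% rose and 3.03% fell in monocytes and 0.464% rose and 0.307% fell in cMoPs. Of 26 tested Notch pathway components, 2 rose and 1 fell in monocytes, not far from those shares, 0 passed in cMoPs and 0 passed for the difference, whose median was -0.14 against -0.01 for all genes. Of 11 tested Notch target genes, 3 rose and 2 fell in monocytes, 1 rose and 1 fell in cMoPs, and 0 passed for the difference (median -0.30). The fall in cMoPs was that of Snai1, from a mean of 0.136 to 0 CPM, so its size depends on the offset. Beside Hes1 and Id3, this list holds Myc, a growth regulator. It was at 15.15 and 20.77 CPM in monocytes on OP9 and 5.05 and 6.31 CPM on OP9-DLL1, and in cMoPs at 201.2 and 193.7 CPM on OP9 and 167.4 and 153.7 CPM on OP9-DLL1. It fell in monocytes (-1.65 ± 0.18), while the cMoP value was -0.30 ± 0.18 and the difference 1.35 ± 0.25 (limma adjusted p = 0.17).

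Ribosome biogenesis genes, which build the cell's protein synthesis machinery and include known MYC targets, fell in monocytes for 19 of 30 tested (0 rose; 3.03% of all genes fell), and 0 passed in cMoPs. The median response was -0.76 in monocytes and -0.21 in cMoPs, against 0.01 at both stages for all genes. No member passed for the difference. Its estimate was positive for 27 of 30, against 6612 of all 13374 genes, and for 17 at an unadjusted p under 0.05, against 693 of all genes. The median difference of the list was 0.45. The median was 0.57 without OP9 monocyte replicate 1 and 0.44 without replicate 2. Gnl3, a nucleolar GTPase, was at 41.30 and 55.05 CPM in monocytes on OP9 and 17.00 and 18.13 CPM on OP9-DLL1, and in cMoPs at 266.0 and 274.2 CPM and then 209.1 and 196.2 CPM (difference 1.03 ± 0.21, limma adjusted p = 0.18). Gar1, a protein of RNA pseudouridylation, was at 4.76 and 4.11 CPM and then 1.83 and 1.61 CPM in monocytes, and at 13.47 to 17.67 CPM in cMoPs (1.39 ± 0.31, adjusted p = 0.206). Gpatch4, Mettl1 and Rrp15, described above, stand outside this list.

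Chemokine genes, which attract leukocytes, fell more often than they rose at both stages. Of 16 tested CCR2 ligands and inflammatory chemokines, 9 fell and 0 rose in monocytes, and 5 fell and 1 rose in cMoPs (3.03% and 0.307% of all genes fell, 3.36% and 0.464% rose). The medians were -1.88 and -1.14. No difference passed, 7 of 16 were positive and 1 negative at an unadjusted p under 0.05 (693 and 616 of all 13374 genes), and the median difference was 1.17, or 0.56 over 14 members without the 2 that had at most 3 reads in each cMoP group. Ccl7 and Ccl12, neighbours of Ccl2 whose reads may be shared with it, had estimates of 3.60 ± 0.73 and 5.53 ± 1.35 (limma adjusted p = 0.18 and 0.236). On OP9-DLL1 the mean of Ccl7 was 1.13 CPM in monocytes and 0.179 CPM in cMoPs, and that of Ccl12 0.0194 and 0.251 CPM. At such low levels the size of these estimates depends on the offset. Pf4 and Ppbp are in this list too, and their fall in monocytes is the fall of the platelet marker sum given above.

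Class II antigen presentation genes rose for 7 of 11 in monocytes and for 1 of 11, Ciita, in cMoPs (3.36% and 0.464% of all genes rose). The medians were 1.22 and 0.50. Of the 5 dendritic cell markers in the table (of 11), 2 rose in monocytes and 0 passed in cMoPs: Batf3, from a mean of 0.486 to 3.95 CPM (3.03 ± 0.66, limma adjusted p = 0.0288), and Mgl2, from 0.522 to 2.97 CPM (2.79 ± 0.53, adjusted p = 0.0179). The sum of the 5 was 102.1 and 103 CPM in the OP9 monocyte libraries, 106.6 and 123 CPM in the OP9-DLL1 ones and 169.1 to 251.7 CPM in cMoPs, and their part in the class II values was not tested. The class II difference was negative for 10 of 11 (6762 of all 13374 genes) with a median of -0.61, and 0 passed. H2-Ab1, a class II chain, was at 56.17 and 100.6 CPM in monocytes on OP9 and 282.7 and 636.3 CPM on OP9-DLL1, and at 5.68 to 9.15 CPM in the cMoP libraries, where the means of 6.34 and 8.36 CPM did not differ past the threshold (difference -2.10 ± 0.52, limma adjusted p = 0.248). The monocyte groups did not overlap, but replicate 2 lay well above replicate 1 on both stromas.

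Nonclassical monocyte genes rose for 12 of 30 in monocytes (3.36% of all genes rose) and fell for 0. In cMoPs 3 rose, Itgax, Hes1 and Ear2, and 1 fell, Fabp4 (0.464% and 0.307% of all genes). Ear2 rose there from a mean of 0.242 to 1.29 CPM. Fabp4 went from 0.355 to 0 CPM, so the size of its fall depends on the offset. The medians were 0.70 and 0.33 and the median difference -0.33, with -0.57 without OP9 monocyte replicate 1 and -0.14 without replicate 2, and 0 passed. Itgal, the CD11a chain of LFA-1, was at 52.71 and 32.83 CPM in monocytes on OP9 and 214.4 and 225.2 CPM on OP9-DLL1. In cMoPs it was at 42.98 and 35.34 CPM and then 61.29 and 59.68 CPM. The groups were apart at both stages, and the difference was -1.77 ± 0.29 (limma adjusted p = 0.129). Nr4a1, an orphan nuclear receptor on which nonclassical monocytes depend, was at 34.31 and 33.68 CPM and then 55.38 and 69.87 CPM in monocytes, and at 0.756 and 2.26 CPM and then 4.92 and 5.33 CPM in cMoPs. Neither response passed (adjusted p = 0.254 and 0.0797), and the difference was 1.09 ± 0.58.

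The next lists are read against the same shares of all genes. Classical monocyte genes were mixed, with 3 rises and 5 falls among 22 in monocytes and 1 rise and 3 falls in cMoPs. Plac8 was the 1 member whose difference passed. Ly6c2, the marker behind the sort name, was at 871.7 to 1204 CPM in monocytes and 2065 to 2314 CPM in cMoPs with overlapping groups at each stage, a difference of -0.06 ± 0.22. Among 23 macrophage and lipid uptake genes, 2 rose and 7 fell in monocytes and 2 rose and 3 fell in cMoPs, and Spic and Pla2g7 were the 2 whose difference passed. Among 26 adhesion genes, 9 rose and 5 fell in monocytes and 3 rose and 1 fell in cMoPs, and Pecam1 was the 1 whose difference passed. Of 33 monocyte transcription factors, 7 rose and 3 fell in monocytes, 2 rose and 1 fell in cMoPs, and Spic was the 1 that passed. Irf8, needed for monocyte commitment, was at 59.54 and 75.57 CPM and then 160.1 and 233.5 CPM in monocytes, against 235.7 and 194.6 CPM and then 234.3 and 320.5 CPM in cMoPs (difference -1.17 ± 0.31, limma adjusted p = 0.261).

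The other genes in the title of the series showed no difference that passed. Bcl6, a transcriptional repressor, was at 4.69 to 8.46 CPM in monocytes and 0.158 to 0.877 CPM in cMoPs, and its difference of -1.44 had a wide interval of -3.35 to 0.46. Irf2, a regulator of interferon-responsive genes, was at 169.4 to 223.5 CPM in monocytes and 39.6 to 49.41 CPM in cMoPs, with a difference of -0.06 (interval -0.55 to 0.44). That interval allows a change of less than 1 log2 unit either way. The OP9 and OP9-DLL1 groups of Bcl6 overlapped at both stages.

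The median difference of many lists moved with the OP9 monocyte libraries, here and in the lists above and below. Cell cycle genes (38 tested, 0 passing at either stage) had a median difference of -0.16, which was 0.27 without OP9 monocyte replicate 1 and -0.63 without replicate 2. Progenitor and primary granule genes (21 tested; 3 rose and 3 fell in monocytes, 0 passed in cMoPs) had 0.05, 0.36 and -0.13 in the same order. Cholesterol biosynthesis genes (23 tested, 3 rises in monocytes) had -0.21, 0.001 and -0.37. The 13 mitochondrially encoded genes, with 0 passing at either stage, all had negative estimates, against 6762 of all 13374 genes. Their median was -0.44, and it was -0.06 without replicate 1 and -0.78 without replicate 2. Among the lists described above, the median without OP9 monocyte replicate 1 and then without replicate 2 was 0.04 and -0.14 for classical monocyte genes (-0.11 with all libraries), -0.13 and -0.15 for adhesion genes (0.01), -0.23 and -0.27 for monocyte transcription factors (-0.15), -0.12 and -0.36 for Notch targets and -0.18 and -0.03 for Notch pathway components.

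The remaining lists had 0 members whose difference passed, and are read against 3.36% of all genes higher and 3.03% lower in monocytes and 0.464% and 0.307% in cMoPs. Where the median difference moved by over 1.5 times without 1 OP9 monocyte library, the values without replicate 1 and then replicate 2 follow it. JAK-STAT and cytokine receptor genes rose for 10 of 32 in monocytes and 2 of 32 in cMoPs, with 0 falls and a median difference of -0.27 (-0.22, then -0.13). NF-kB and cytokine genes rose for 5 of 21 in monocytes and 1 of 21 in cMoPs (median difference -0.40, then -0.33 and -0.19). Interferon response genes rose for 4 and fell for 1 of 29 in monocytes and rose for 1 in cMoPs (0.22, then 0.10 and 0.38), and immediate early genes rose for 2 and fell for 3 of 22 in monocytes and rose for 1 in cMoPs (0.37). Osteoclast genes rose for 2 of 6 in monocytes and 1 of 6 in cMoPs (-1.36). Inhibitory and Fc receptors rose for 5 and fell for 1 of 19 in monocytes and rose for 2 in cMoPs (0.01, then -0.20 and 0.25), and glycolysis and hypoxia genes rose for 1 and fell for 2 of 23 in monocytes and 0 passed in cMoPs (0.29). Transporter genes rose for 3 and fell for 1 of 23 at each stage (-0.16, then -0.10 and -0.02).

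**Figure D5:**
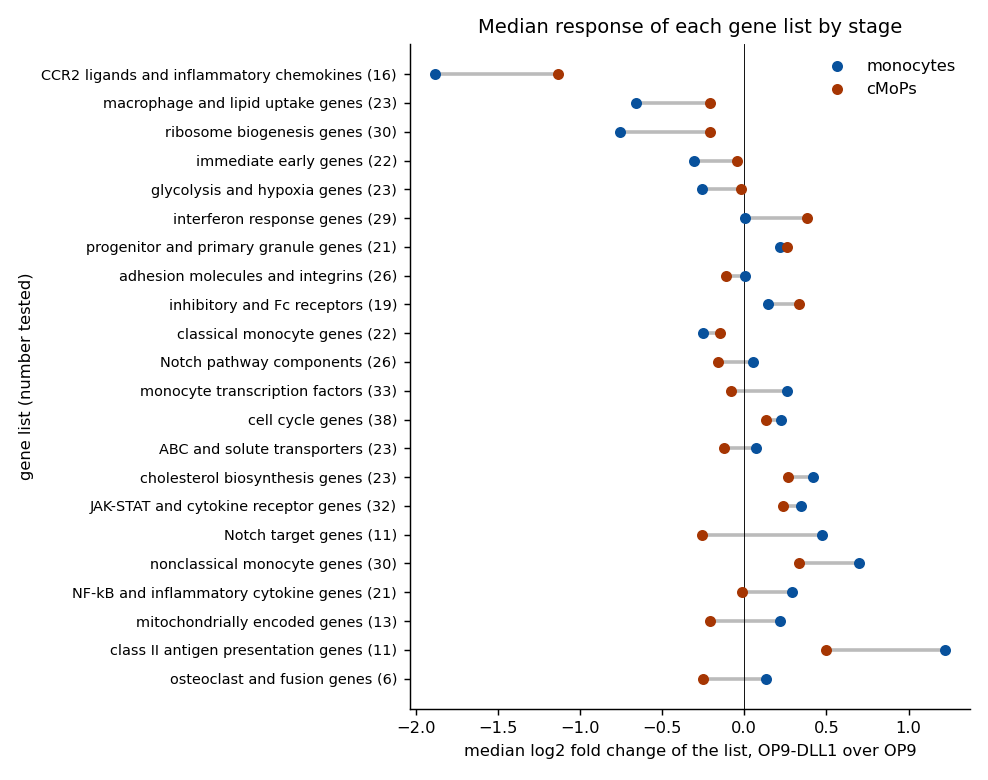
Points are the median log2 fold change (OP9-DLL1 over OP9) of each gene list in monocytes (blue) and cMoPs (red), joined by a grey line, with the number of genes tested in brackets; rows are ordered by the median difference of responses. The longest lines belong to the chemokine, class II and Notch target lists, and the monocyte point lies further from 0 for chemokine, ribosome biogenesis, class II and nonclassical genes.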

How the data were processed

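The kit used for all 8 libraries, SMARTer Ultra Low per the labels' protocols, marks no strand. Per the submitters' processing notes, the tools included STAR 2.7.9a, featureCounts 2.0.3 and Salmon 1.5.2, with edgeR, limma and build mm10; roles and gene filter are not named there. The deposited table holds log2 CPM normalized by the authors for 13430 entries. The first entry of each of 13388 identifiers was kept. Values have the form of limma's voom (0.5 reads added), and 100.0% gave whole reads (tolerance 0.001); printed CPM are these recovered reads over the effective library size. The authors' fold changes and p-values were not used.

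Limma-trend (limma 3.58.1 in R 4.3.3) was fitted to the deposited log2 CPM of 13374 genes with a mean for each of 4 groups (4 residual and 5.21 prior degrees of freedom). Genes needed 1 CPM in 2 libraries. Tests were two-sided and adjusted by Benjamini-Hochberg over every gene tested, passing under 0.05. Alternatives were no trend, no filter, 5 CPM, median centring, log2(CPM + 1), voom with and without library weights on recovered reads, a replicate block and each library left out. The fitting code was tested on simulated data. Floors (3 reads over a group) and counting intervals cover counting error only. Nothing in the labels ties replicates to separate mice or cultures, so the p-values measure spread between samples that may be technical; chi-square per degree of freedom between replicates was 23.9 to 156.4. Gene positions are from GENCODE M21 on GRCm38.

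The genes, the 22 gene lists and the 10 marker lists were chosen with earlier results of these data known. Named genes were, at 5 CPM or more in a group and leaving out predicted models, the 12 highest and 12 lowest passing differences whose responses did not overlap, 6 per class by adjusted p (8 for shared genes), up to 3 passing members of a list or 2 given as values, and 14 set genes (Hes1, Spic, Itgax, Cd22, Ccl2, Spp1, Myc, Rbpj, Notch1, Notch2, Bcl6, Irf2, Nr4a1 and Ly6c2). Ear2, Fabp4, Snai1, Mmp8, S100a8, Ccl7, Ccl12 and Ppbp were named after their values were seen. Erythroid, dendritic cell, B cell, T and NK cell and mast cell markers (1 to 5 per list in the table) summed to at most 322 CPM in a library.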

Additional observations from a re-analysis of the deposited data

Results flagged for a closer look

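The test of the difference between the monocyte and the cMoP response itself passed for 7 genes, and the differences (cMoP response minus monocyte response, log2) were -1.78 for Plac8, -2.33 for Pecam1, 4.19 for Spic, 3.23 for Pla2g7, 1.34 for Hmga1, 1.54 for Gpatch4 and -1.92 for Il21r. Their adjusted p-values (limma) ran from 0.00524 for Plac8 to 0.0298 for Gpatch4 and Il21r. None passed without any 1 of the OP9-DLL1 monocyte or cMoP libraries, when the adjusted p reached 0.12 for Plac8 and Pecam1, 0.202 for Pla2g7, 0.28 for Hmga1, Gpatch4 and Il21r and 0.367 for Spic. Without the mean-variance trend 0 of the 7 passed. Among these genes only Spic changed direction in any analysis run, with log2(CPM + 1). The cause of the differences was not tested.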

How the results depend on the processing

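The main counts were 7 genes for the difference (4 higher, 3 lower), 855 for monocytes, 103 for cMoPs, 71 shared, 1 scaled, 5 in monocytes only and 1 in cMoPs only. The filters, median centring and every count not given here left them within 1.5 times. Without the mean-variance trend they were 1 (0 higher, 1 lower), 248, 37, 21, 0, 0 and 0. With log2(CPM + 1) the difference passed for 24 genes (9 higher, 15 lower), 5 were scaled, 19 in monocytes only and 0 in cMoPs only. With voom on recovered reads 64 genes passed in cMoPs, 0 were scaled and 0 in cMoPs only. With library weights 5 differences were lower, 536 genes passed in monocytes, 268 in cMoPs, 137 were shared, 3 scaled and 0 in cMoPs only. Of the 7 genes, 0 passed in the same direction without the trend, 6 with log2(CPM + 1), 5 with voom and 6 with library weights. With log2(CPM + 1) Spic passed in the opposite direction (limma adjusted p = 0.027). Spic did not pass with either voom fit, and Pla2g7 did not pass with voom without library weights. The cause was not tested.

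Leaving out 1 library at a time (the lone sample of a group is then assumed to vary like the others), counts ranged from 0 to 1123 for the difference (0 to 596 higher, 0 to 527 lower), 162 to 2482 for monocytes, 31 to 307 for cMoPs, 26 to 198 shared, 0 to 27 scaled, 0 to 958 in monocytes only and 0 to 35 in cMoPs only. The difference passed for 1123 genes without OP9 monocyte replicate 2, for 29 without OP9 monocyte replicate 1 and for 0 without any other library.

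The replicate differences of 2 groups correlated at 0.0227 to 0.0891 across genes. These values are small but all positive, and they cannot decide whether the replicate numbers pair the libraries, since counting noise in single genes lowers such a correlation. With the replicate block 11 differences passed, 5 of them lower and all of the 7 genes among them, 156 genes passed in cMoPs, 3 were scaled, 8 in monocytes only and 0 in cMoPs only.

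Of 65 named differences under 16 alternatives, 900 values kept direction and side of the threshold, 52 lost the call, 59 gained it and 27 changed sign. With log2(CPM + 1) the sign turned for Spic (-1.94), Ciita (-2.39), Cd22 (-0.41), F11r (-1.004) and C3ar1 (0.80), and with median centring for Irf2 (0.023) and Ly6c2 (0.017). With 1 library left out the range crossed 0 for Cd22 (-0.34 to 0.66), F11r (-0.33 to 0.62), Slc39a14 (-0.086 to 0.32), Notch1 (-0.13 to 0.25), Irf2 (-0.25 to 0.13), Ly6c2 (-0.30 to 0.17) and Cdc20 (-0.94 to 0.004) and reached it for C3ar1 (-0.43 to 0.00). The 2 libraries per group limit the difference to a median 95% interval of 0.73 log2 units either way.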
